A study of Homo sapiens with 12 samples.

Results

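UNKL (ENSG00000059145.18) is the gene described here, through the stretches of its transcript that were crosslinked to the RNA-binding protein NONO in 22Rv1 human prostate cancer cells. Its members are the 160 peaks, of 26351 in 6 deposited lists, that the authors annotated to UNKL. The gene was chosen because its share of the peaks is higher with both stereoisomers of SKBG-1 than with DMSO, so that difference is given as a description, without a test. SKBG-1(R) and SKBG-1(S) were each used at 20 µM in 0.04% DMSO for 4 h. Control cells received the solvent at 0.04% for the same time, so all cells were exposed to DMSO. Each of the 3 groups had 2 lists, each from an eCLIP library and its input library. The labels mention plates but do not say that a replicate was a separate culture. The p-values below thus set a difference against the variation between these lists, which may be technical only. All groups are 1 cell line, and the RNA-seq named in the design text was not analysed here.

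NONO is a nuclear protein of paraspeckles that binds pre-mRNAs and noncoding RNAs, often in introns, and takes part in splicing and transcription. In eCLIP, UV light joins protein to RNA, the protein is pulled down, and stretches with more reads than in the input library are called as peaks. UNKL encodes a protein with CCCH zinc fingers and a RING domain, related to Unkempt, a translational regulator that binds RNA. The human UNKL protein has been described to bind the active form of the GTPase RAC1 and to promote ubiquitination of a SWI/SNF subunit.

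UNKL lies on the minus strand of chromosome 16 (GRCh38, chr16:1363205-1414751, 51.5 kb). GENCODE 29 lists 17 transcripts, of which UNKL-201, UNKL-205, UNKL-206 and UNKL-207 start at an internal site, within 40 nt of position 1379683. Of the 9 transcripts that start upstream of it, UNKL-204 and UNKL-210 run through to the 3′ part of the gene. The first intron of UNKL-201 (chr16:1371612-1379532) is 7.92 kb long, 15.4% of the gene, and lies inside an intron of UNKL-204 and UNKL-210 as well.

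No genome sequence was used, so intronic peaks are given by position, and sequence is shown for peaks that lie wholly in an annotated exon, which 16 of the 160 did. The following 4 are shown because they carry the strongest UNKL enrichment, its neighbour, a stretch found with both compounds and one from the 3′ end. All are on the minus strand, 5′ to 3′, from GENCODE 29 transcripts, and capitals mark bases that also lie in a peak of at least 1 other list.
SKBG-1(R) replicate 2, chr16:1379090-1379115: ctgtgtcacggcagagccgggctgtg
SKBG-1(R) replicate 2, chr16:1379067-1379089: tcgcggtgactcAGCGGGGCCGG
SKBG-1(R) replicate 1, chr16:1379125-1379163: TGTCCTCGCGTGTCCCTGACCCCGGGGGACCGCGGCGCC
SKBG-1(R) replicate 2, chr16:1364511-1364539: ctgtccctaggagttgagcaggaacaggc
The first is 26 nt in the first exon of UNKL-213 and had the highest log2 enrichment of any UNKL peak, 5.92. The second abuts it and shares 11 nt with a peak of SKBG-1(S) replicate 2. The 39 nt of the third lie in the first exon of the noncoding transcript UNKL-214, and all of them also lie in peaks of replicate 2 of both compounds. The fourth lies in the 3′ UTR of UNKL-201, where no other list held a peak at these bases. Their GC content was 69.2%, 78.3%, 79.5% and 58.6%, in the order printed.

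The bases just before the internal start are printed because the UNKL peaks begin just after it. They are 219 nt from the RefSeq promoter window of UNKL (GRCh38.p14, chr16:1379684-1379902, minus strand), and capitals mark GGGCGG and its reverse complement CCGCCC.
UNKL, upstream of the internal start: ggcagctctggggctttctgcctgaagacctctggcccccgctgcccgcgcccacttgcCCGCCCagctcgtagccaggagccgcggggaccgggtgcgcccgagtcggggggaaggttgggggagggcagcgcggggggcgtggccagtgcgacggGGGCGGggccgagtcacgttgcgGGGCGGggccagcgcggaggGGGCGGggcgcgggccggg
GGGCGG was found 3 times on the gene's strand and 1 time on the other. The whole 300-nt window held 5 such boxes on both strands together, and 45.0% of the 35116 RefSeq windows of that length held at least 1, while 5.14% held 5 or more. GC content of the UNKL window was 79.3%, against a median of 58.7% over all windows. A match of letters is a description and shows no binding.

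The 6 lists differed in length. SKBG-1(R) gave 1953 and 14847 peaks, SKBG-1(S) 1237 and 3967, and DMSO 669 and 3678, for replicates 1 and 2. Read depth is unknown, so list length sets the precision. Every deposited peak had a log2 enrichment over input of at least 3 and a −log10 p of at least 3, and a stretch below these limits is not listed, so a gene without a peak is not shown to be unbound. Of 9 prostate epithelial markers, 3 (33.3%) had a peak, against 6.92% of protein-coding genes of GENCODE matched by name. TMPRSS2 and SLC45A3 were among the 3, with 5 and 2 peaks over all lists, and KLK2 and KLK3 had none. In the tests below a gene needed 10 or more peaks in all lists together, which 479 genes had.

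UNKL held 27 and 77 peaks in the SKBG-1(R) lists, 24 and 24 in the SKBG-1(S) lists, and 0 and 8 in the DMSO lists. Per 10000 peaks of the list, this was 138.2 (95% Wilson interval 95.2 to 200.4) and 51.9 (41.5 to 64.8) with SKBG-1(R). With SKBG-1(S) it was 194.0 (130.7 to 287.1) and 60.5 (40.7 to 89.9). DMSO replicate 2 stood at 21.8 (11.03 to 42.9), and DMSO replicate 1 listed no UNKL peak. All 4 compound lists stood above both DMSO lists, and within each compound the shorter list, replicate 1, had the larger share. The intervals cover counting error only and treat neighbouring peaks as independent, which they may not be.

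**Figure D1:**
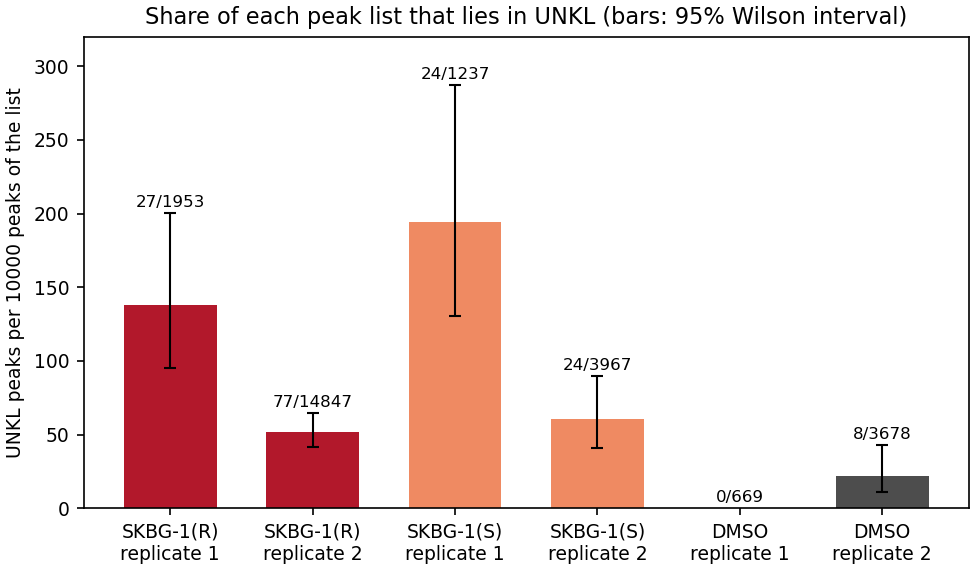
UNKL peaks per 10000 peaks of each list (y axis) in the 6 lists (x axis), with 95% Wilson intervals as error bars and the number of UNKL peaks over the list length above each bar. Shares were 51.9 to 194.0 in the compound lists, and 0 and 21.8 in the DMSO lists, where no interval is drawn at 0.

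Group means were 95.1 ± 61.1 with SKBG-1(R), 127.3 ± 94.4 with SKBG-1(S) and 10.9 ± 15.4 with DMSO (SD, n = 2 each). With a prior count added before taking log2 (2 at the mean list length, scaled to each list), SKBG-1(R) exceeded DMSO by 3.04, and SKBG-1(S) exceeded it by 3.38. Both were the highest of the 479 genes, and the median over these genes was 0.23 against DMSO for SKBG-1(R), and 0.14 against DMSO for SKBG-1(S). Both comparisons use the same DMSO lists, 1 of which was at 0, so the size depends on the prior count. Within replicate 2, where no list was at 0, the share was 2.38 times that of DMSO with SKBG-1(R) and 2.78 times with SKBG-1(S). Without DMSO replicate 1 the log2 differences were 1.80 for SKBG-1(R) and 2.14 with SKBG-1(S), and without DMSO replicate 2 they were 4.34 and 4.69.

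As background, both SKBG-1(R) lists stood above both DMSO lists for 50 of 479 genes (10.4%), both SKBG-1(S) lists for 64 (13.4%), and all 4 compound lists for 26 (5.43%). Since UNKL was chosen on this contrast, nothing is read from its place among them. limma called 0 of 479 genes (0%) at an adjusted p under 0.05 in each of SKBG-1(R) against DMSO, SKBG-1(S) against DMSO and SKBG-1(R) against SKBG-1(S). At an unadjusted p under 0.05 it found 15, 6 and 5 genes in these comparisons. When each list was cut to its 669 peaks of highest −log10 p, UNKL held 6 and 14 with SKBG-1(R), 17 and 16 with SKBG-1(S), and 0 and 3 with DMSO. The closest of these counts were 6 in SKBG-1(R) replicate 1 and 3 in DMSO replicate 2, on the contrast that chose UNKL.

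The difference between the stereoisomers did not itself choose UNKL, and it was tested as 1 pair at matched dose and time. The choice did use the same SKBG-1(R) and SKBG-1(S) shares, and asking for both to be raised favours genes where they are alike. The test is therefore not independent of the choice, and no likeness of the stereoisomers is concluded from it. The log2 difference of SKBG-1(R) against SKBG-1(S) was -0.34 (95% interval -2.51 to 1.82, SE 1.04, 2 lists each), with a limma adjusted p of 0.995. As a ratio this is 0.790, with an interval of 0.176 to 3.54, so the interval covers severalfold differences in either direction. The share was lower with SKBG-1(R) in both replicates, at 0.713 times that of SKBG-1(S) in replicate 1 and 0.857 times in replicate 2. The share of genes with an unadjusted p under 0.05 was 1.04%, and UNKL was not among them. The sign depended on scaling and on single lists: it was 0.30 with median-ratio scaling, 0.88 with no scaling, 0.31 without SKBG-1(R) replicate 2 and 0.47 without SKBG-1(S) replicate 1. Adjusted p-values over the 17 alternatives were 0.654 or higher.

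The UNKL peaks were confined to the 3′ part of the gene in all 5 lists that held any. The 35.1 kb upstream of the internal start, 68.0% of the gene, held 0 of the 160 peaks. The most 5′ peak edge lay 100 nt downstream of the internal start, in SKBG-1(R) replicate 2. The most 5′ edges of the other lists were 115 nt in SKBG-1(R) replicate 1, 310 and 461 nt in the SKBG-1(S) lists, and 790 nt in DMSO replicate 2. All 160 peaks were on the strand of the gene. Which transcripts were crosslinked cannot be told apart here, since the bases of the first intron of UNKL-201 lie in UNKL-204, UNKL-210 and the short transcripts. The 8 peaks in 3′ UTRs lie beyond the 3′ ends of UNKL-210, UNKL-205 and UNKL-206, but within UNKL-201, UNKL-204 and UNKL-207.

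**Figure D2:**
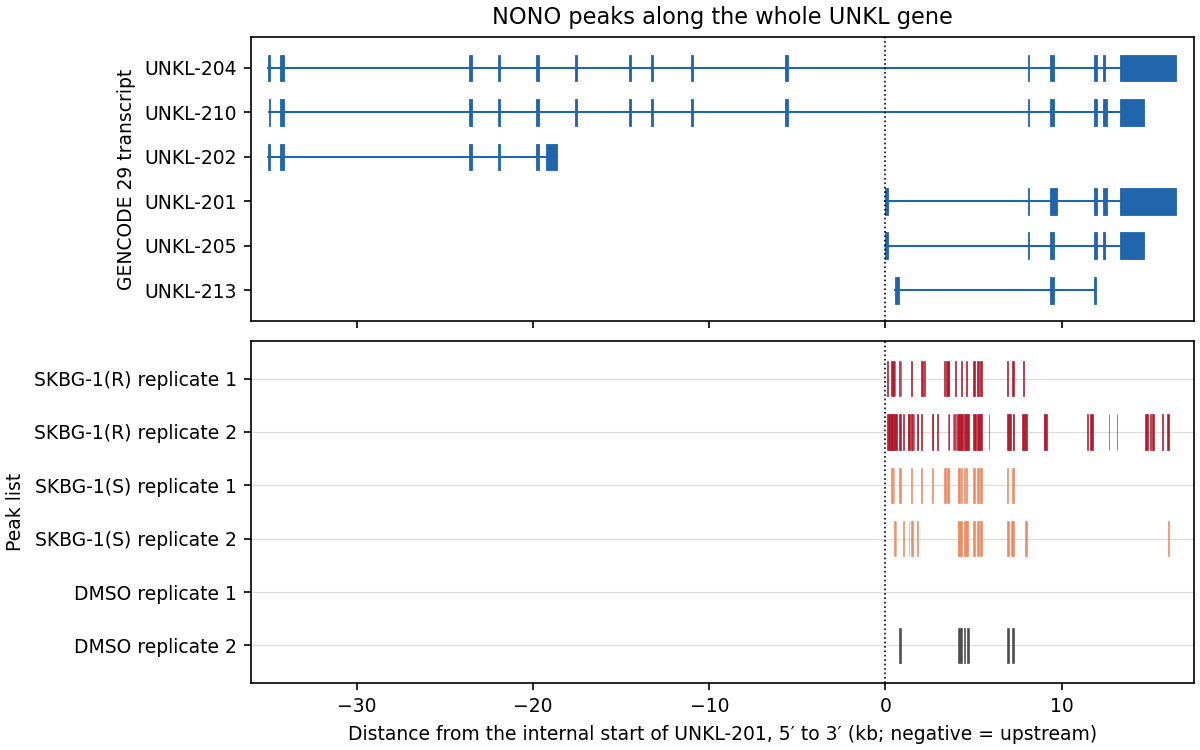
Exons of 6 UNKL transcripts (top, blocks) and UNKL peaks of each list (bottom, coloured blocks, SKBG-1(R) red, SKBG-1(S) orange, DMSO grey) against distance from the internal start in kb. No peak lies left of the dotted line that marks the internal start, and SKBG-1(R) replicate 2 holds 14 peaks beyond the first intron of UNKL-201.

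This placement was compared with other genes. Of the 479 genes, 441 could be placed on a GENCODE gene. The most 5′ peak of UNKL lay at 0.683 of the gene's length, where 0 is the 5′ end, and 5 of the 441 genes (1.13%), UNKL included, were at or beyond it. The median over these genes was 0.0145, and 74.8% had their most 5′ peak within the first 10% of the gene. UNKL had 3.10 peaks per kb over all lists, rank 39, against a median of 0.518.

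**Figure D3:**
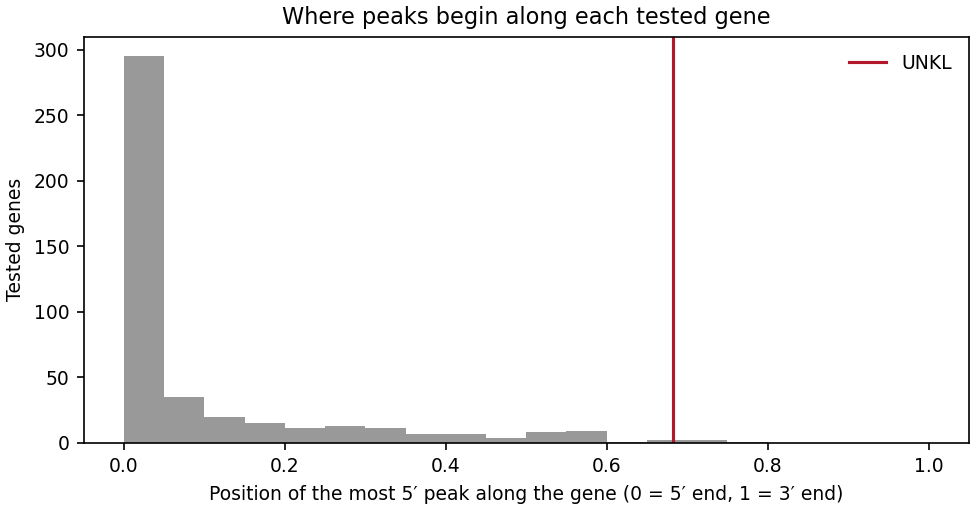
Number of tested genes (y axis) by the position of their most 5′ peak over all lists along the gene (x axis, 0 = 5′ end and 1 = 3′ end), for 441 genes. The red line marks UNKL at 0.683, against a median of 0.0145.

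The first intron of UNKL-201 held 143 of the 160 peaks (89.4%) wholly inside it. By list this was 26 of 27 and 62 of 77 with SKBG-1(R), 24 of 24 and 23 of 24 with SKBG-1(S), and 8 of 8 in DMSO replicate 2. A further 1 peak in each SKBG-1(R) list crossed from the first exon into the intron. The remaining 15 peaks lay downstream of it, 14 in SKBG-1(R) replicate 2, with the last 1 in SKBG-1(S) replicate 2. Without SKBG-1(R) replicate 2, the longest list, the first intron held 97.6% of the peaks. By the authors' classes 103 peaks were in introns over 500 nt from an exon, 41 in introns nearer to one, 8 in 5′ UTRs, 8 in 3′ UTRs and 0 in coding sequence. Of the 3′ UTR peaks, SKBG-1(R) replicate 2 held 7, and SKBG-1(S) replicate 2 held 1.

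Peaks were spread along the whole intron rather than gathered at one end. By peak centre, the first kb after the internal start had 7 and 15 peaks in the SKBG-1(R) lists, 5 and 3 in the SKBG-1(S) lists, and 0 and 2 in the DMSO lists. The kb from 4 to 5 held 2 and 11 with SKBG-1(R), 5 and 6 with SKBG-1(S), and 0 and 4 with DMSO. From 2 to 3 kb there were 3 and 4 peaks with SKBG-1(R), 2 and 0 with SKBG-1(S), and 0 in both DMSO lists. From 3 to 4 kb there were 5 and 6 with SKBG-1(R), 3 and 0 with SKBG-1(S), and 0 in both DMSO lists. Replicate 1 of SKBG-1(S) thus held peaks there, and replicate 2 did not. The longest stretch of the intron without a peak in any list was 975 nt (chr16:1372807-1373781). The first 500 nt of the intron held 4 and 12 peak centres with SKBG-1(R), 3 and 3 with SKBG-1(S), and 0 in both DMSO lists. The last 500 nt held 1 and 4 with SKBG-1(R), 0 and 2 with SKBG-1(S), and 0 in both DMSO lists.

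Peaks covered 18.7% and 36.7% of the first intron with SKBG-1(R), 18.6% and 22.1% with SKBG-1(S), and 9.77% in DMSO replicate 2. In nt over the whole gene, this was 1517 and 3850 with SKBG-1(R), 1473 and 1815 with SKBG-1(S), and 774 in DMSO replicate 2. SKBG-1(R) and SKBG-1(S) overlapped in this measure. Unlike the peak shares, it is not scaled to list length, and it depends on the number of UNKL peaks in a list.

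**Figure D4:**
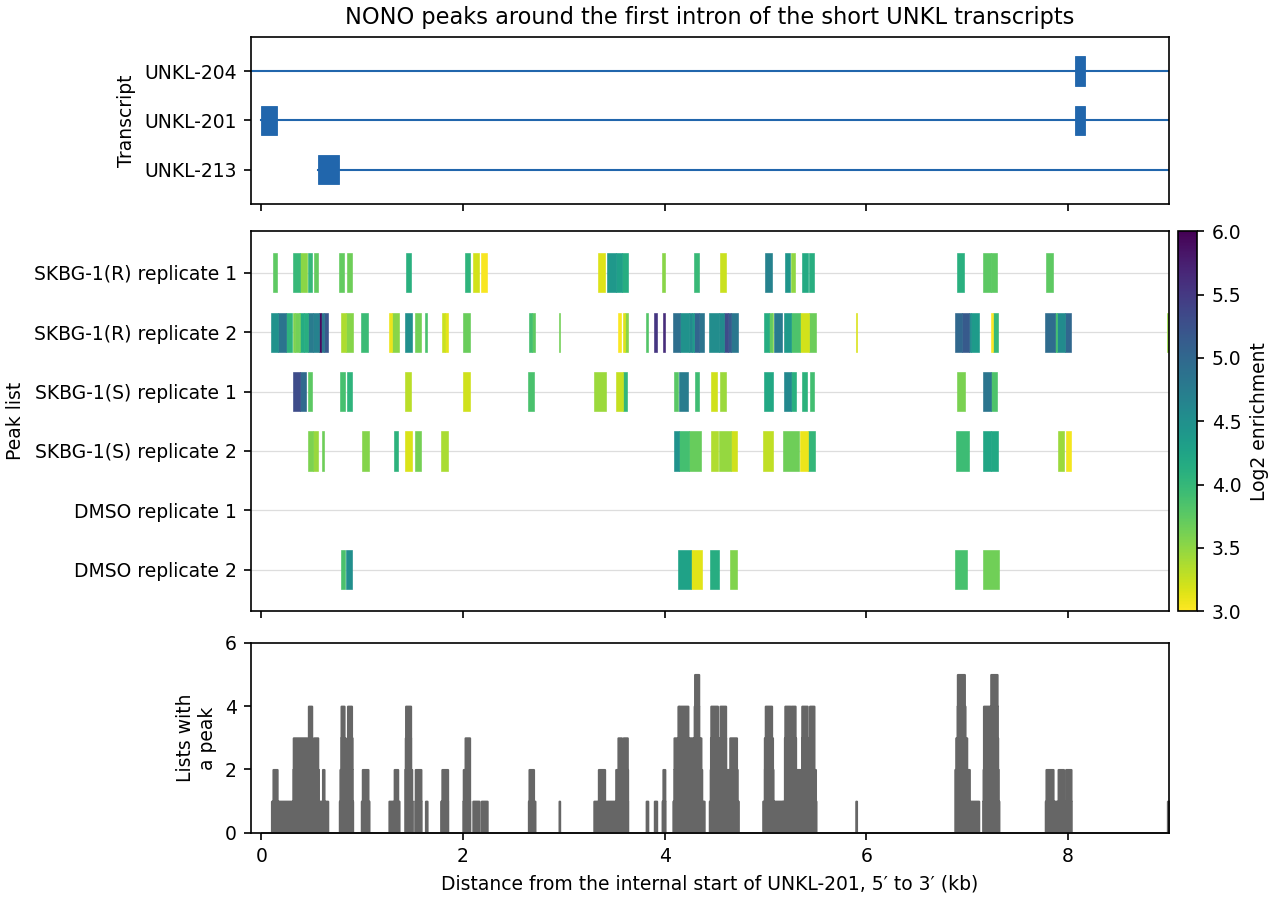
Transcripts (top), UNKL peaks of each list coloured by the authors' log2 enrichment (middle) and the number of lists with a peak at each base (bottom) over the first 9 kb after the internal start. Coverage reaches 5 lists at 3 places, and DMSO replicate 1 holds no peak.

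Merged over the lists where they shared at least 1 nt, the 160 peaks formed 54 regions. Both SKBG-1(R) lists held 17 of them, both SKBG-1(S) lists 9, and both DMSO lists 0. All 9 regions in both lists of SKBG-1(S) were also in both lists of SKBG-1(R). Of the 54, 25 were in SKBG-1(R) replicate 2 alone. No region was in all 6 lists, since DMSO replicate 1 had no UNKL peak, and 4 were in the other 5. The 8 peaks of DMSO replicate 2 fell in 6 regions, and each of the 8 overlapped a peak of SKBG-1(R) replicate 2.

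The 4 regions in all lists but DMSO replicate 1 were chr16:1375293-1375602, chr16:1374954-1375241, chr16:1372643-1372806 and chr16:1372370-1372530. They begin 4081, 4442, 6877 and 7153 nt after the internal start. In the first of them, the highest log2 enrichment was 3.98 and 5.04 with SKBG-1(R), 4.76 and 4.49 with SKBG-1(S), and 4.27 in DMSO replicate 2. In the last it was 3.76 and 3.98 with SKBG-1(R), 4.84 and 4.22 with SKBG-1(S), and 3.65 in DMSO replicate 2. Enrichment in DMSO replicate 2 lay within the range of the compound lists in the first region and below it in the last. Within these regions, 174 nt lay in peaks of 5 lists, in 3 runs of 41, 70 and 63 nt.

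A further 5 regions were in both lists of both compounds and in no DMSO list. They were chr16:1379116-1379223, chr16:1378187-1378261, chr16:1374607-1374711, chr16:1374346-1374512 and chr16:1374184-1374345. The first holds the 39-nt sequence of UNKL-214 printed above, and its highest log2 enrichment was 4.00 and 4.76 with SKBG-1(R), against 3.76 and 3.60 with SKBG-1(S). The last had 4.18 and 3.67 with SKBG-1(R), against 4.07 and 4.02 with SKBG-1(S). This set depended on the threshold: with peaks of log2 enrichment of at least 4, and likewise with lists cut to equal length, 0 regions met it. The regions with the highest enrichment in their weakest list were all in SKBG-1(R) replicate 2 alone, at 5.92 (the 26-nt sequence above), 5.54 (chr16:1375764-1375786), 4.84 (chr16:1379443-1379515), 4.76 (chr16:1374517-1374599) and 4.36 (chr16:1372570-1372642).

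Lists of unequal length overlapped by unequal shares. Of the 27 peaks of SKBG-1(R) replicate 1, 23 (85.2%) overlapped replicate 2, and of its 77, 31 (40.3%) overlapped replicate 1. For SKBG-1(S), 15 of 24 (62.5%) in replicate 1 overlapped replicate 2, and 14 of 24 (58.3%) in replicate 2 overlapped replicate 1. Across compounds, 21 of 27 (77.8%) SKBG-1(R) replicate 1 peaks overlapped SKBG-1(S) replicate 1, and 20 of 24 (83.3%) did so the other way. All 24 of SKBG-1(S) replicate 2 overlapped SKBG-1(R) replicate 2, as did 36 of 77 (46.8%) the other way.

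The enrichment of the UNKL peaks overlapped between the groups. The median log2 enrichment was 3.76 and 3.96 with SKBG-1(R), 3.90 and 3.57 with SKBG-1(S), and 3.87 in DMSO replicate 2. The medians over all peaks of the same lists were 3.77 and 3.75 with SKBG-1(R), 3.76 and 3.64 with SKBG-1(S), and 3.59 in DMSO replicate 2. The highest UNKL values were 4.67 and 5.92 with SKBG-1(R), 5.31 and 4.49 with SKBG-1(S), and 4.52 in DMSO replicate 2. Median peak width was 56 and 47 nt with SKBG-1(R), 57.5 and 68.5 nt with SKBG-1(S), and 95.5 nt in DMSO replicate 2. Median −log10 p was 4.99 and 17.4 with SKBG-1(R), 5.13 and 13.1 with SKBG-1(S), and 8.45 in DMSO replicate 2, and was higher in replicate 2 of each compound.

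**Figure D5:**
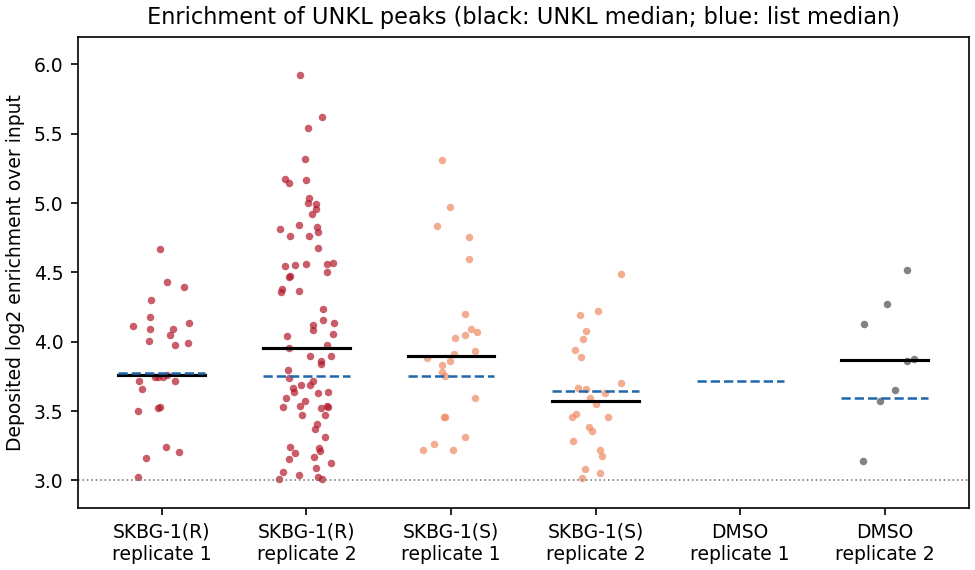
The authors' log2 enrichment over input (y axis) of each UNKL peak (points) in each list (x axis), with the UNKL median (black), the median of all peaks of the list (blue dashes) and the lower limit of 3 (dotted). UNKL medians lie between 3.57 and 3.96, and the highest peak, at 5.92, is in SKBG-1(R) replicate 2.

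Between the stereoisomers, 3 such readouts were tested by exact two-sided permutation over the 2 lists of each compound, for which the smallest possible p is 0.333. SKBG-1(R) minus SKBG-1(S) was 0.12 for the median log2 enrichment, -11.5 nt for the median width and 7.35 percentage points for the covered share of the intron. The exact p was 0.667, 0.333 and 0.667, and 0.667 for each after Benjamini-Hochberg adjustment. With 0.333 as the smallest p, no readout could be called whatever its values, so no likeness of the stereoisomers is concluded. The covered share was not scaled to list length, and it depends on the number of UNKL peaks, which also entered the choice of the gene.

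Peaks were also counted in the genes around UNKL. Of 19 other protein-coding genes within 250 kb, 4 had a peak, GNPTG, CRAMP1 and CLCN7 among them. Over all protein-coding genes of GENCODE, matched by name, 6.92% had a peak, a share that misses genes named otherwise in the lists. The difference between these shares was not tested. GNPTG, a subunit of the enzyme that tags lysosomal proteins, overlaps the 3′ end of UNKL on the other strand. It had 0 and 7 peaks in the SKBG-1(R) lists, 4 and 8 in the SKBG-1(S) lists, and 0 and 8 in the DMSO lists. Per 10000 peaks of the list, this was 0 and 4.71 with SKBG-1(R), 32.3 and 20.2 with SKBG-1(S), and 0 and 21.8 with DMSO. The shares of each compound overlapped those of DMSO. No peak on the other strand lay within UNKL. CRAMP1 held 3, and the chloride transporter CLCN7 and the noncoding gene LA16c-316G12.2 held 1 each, all in SKBG-1(R) replicate 2.

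Over the 6 lists, the genes whose log2 share was most like that of UNKL were GRB10 (Pearson r = 0.976), TRIB3 (0.940), LINC-PINT (0.937), ELOVL5 (0.933), NUMBL (0.930) and JADE1 (0.925). The median r over 478 genes was 0.057. GRB10, an adaptor that restrains insulin receptor signalling, had 8 and 19 peaks in the SKBG-1(R) lists, 8 and 12 in the SKBG-1(S) lists, and 0 and 3 in the DMSO lists. TRIB3, a stress-induced pseudokinase, held 9 and 13 with SKBG-1(R), 8 and 8 with SKBG-1(S), and 0 and 1 with DMSO. In none of these 6 genes did DMSO replicate 1 hold a peak. They were chosen for likeness to UNKL, which had 0 there. Of the 1689 genes with a peak in any list, 238 had one in DMSO replicate 1. The values share list lengths, so r is a description.

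Of 52 genes of the CCCH zinc-finger family, 4 (7.69%) had a peak in any list, where 1379 of 19936 protein-coding genes of GENCODE (6.92%) had one under their own name. Beside UNKL these were ZC3H3, a factor in mRNA polyadenylation and export, with 23 peaks, all in SKBG-1(R) replicate 2, ZC3H12C with 4 and MBNL1, a splicing regulator, with 1. Of 28 SWI/SNF subunits, 7 (25.0%) had a peak under the name listed, and 4 of these were tested. Among the 4, limma called 0 in any comparison, and 0 had an unadjusted p under 0.05. These counts miss subunits that the peak lists name otherwise. GLTSCR1 with 84 peaks and GLTSCR1L with 32 over all lists were tested but are not counted here. The median log2 difference of the 4 was 0.20 for SKBG-1(R) against DMSO and 0.95 for SKBG-1(S) against DMSO. For SKBG-1(R) against SKBG-1(S) it was -0.71. All tested genes had 0.23, 0.14 and -0.08, in the same order. ARID1A, a DNA-binding subunit, had 51.2 and 6.06 peaks per 10000 in the SKBG-1(R) lists, 32.3 and 5.04 in the SKBG-1(S) lists, and 59.8 and 5.44 in the DMSO lists, which overlap. For SKBG-1(R) against SKBG-1(S) the log2 difference was 0.37 for ARID1A, -1.07 for SS18L1, -0.60 for the ATPase SMARCA2 and -0.82 for the ATPase SMARCA4. None of 4 Rac GTPases had a peak. UNKL RNA itself was not measured here, so more UNKL RNA and more NONO contacts per RNA cannot be told apart beyond the authors' use of input libraries.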

How the data were processed

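NONO eCLIP peaks of 22Rv1 cells were analysed from 6 deposited lists, 1 per replicate, made from 12 libraries. The submitters' processing notes name cutadapt 1.9 and STAR 2.4.0i and both hg19 and hg38. The peak caller is not given in the sources used here. All 10 UNKL transcripts in the deposited annotation have GENCODE 29 coordinates within 1 nt, so positions are GRCh38. The authors deposited a −log10 p per peak and a log2 enrichment over input, used only to describe, rank or filter peaks within a list. Peaks per gene were divided by list length (669 to 14847), with 60 intergenic peaks kept in the length. Genes with at least 10 peaks were compared on the log2 scale (prior count 2, scaled to list length) with limma 3.58.1 in R 4.3.3, all lists in 1 fit, with Benjamini-Hochberg adjustment. The step was tested on simulated lists. UNKL, the lists and the tests were chosen with earlier results of these data known. Named are UNKL, the 6 genes with the most similar profile, neighbours within 250 kb with a peak, list members with a peak (CCCH family, SWI/SNF, Rac GTPases, prostate markers), and regions held by all lists, by both compounds only, or with the highest weakest-list enrichment. The regions held by all lists but DMSO replicate 1 were added after their values were seen, as was the share in the first intron under other limits. Values of some genes that meet these rules are not reported here.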

Additional observations from a re-analysis of the deposited data

How the results depend on the processing

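SKBG-1(R) against SKBG-1(S) was positive in 4 of 17 alternatives, at 0.30 with median-ratio scaling, 0.88 without scaling, 0.31 without SKBG-1(R) replicate 2 and 0.47 without SKBG-1(S) replicate 1, and negative in the other 13. Leaving out 1 list at a time gave -1.15 to 0.47, and UNKL was called in none. The number of genes called in this comparison was 0, except 23 without SKBG-1(R) replicate 1, so leaving out 1 list gave 0 to 23. The labels do not say that replicate numbers pair the samples. Deviations of same-numbered lists correlated at 0.42 to 0.58 over genes, and with a replicate block UNKL stood at -0.34 with 0 genes called and 33 at an unadjusted p under 0.05. The difference from DMSO, which chose UNKL, was positive in all 17 alternatives, at 1.80 to 4.34 for SKBG-1(R) and 2.14 to 4.69 for SKBG-1(S). All compound lists stood above both DMSO lists, so leaving out 1 list could not change this sign. The count of positive alternatives is thus no support for the difference. The regions held by both compounds and no DMSO list numbered 3 with peaks within 50 nt joined, 0 at a log2 enrichment of at least 4 and 0 in lists of equal length, each with fewer or joined peaks by construction, against 5 as reported. Where peaks had to share 0.5 of the shorter one, there were 7. Regions in both SKBG-1(R) lists numbered 1 to 21 over these alternatives, and in both SKBG-1(S) lists 2 to 12. The first intron held 87.5 to 100% of the UNKL peaks under every limit or list left out. Only 2 lists per group and 0 and 8 UNKL peaks in DMSO limit these values.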
